A study of Sus scrofa with 12 samples.

Results

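The 10 genes described here control entry of the cell into S phase. They are the D-type cyclins CCND1, CCND2 and CCND3, the E-type cyclin CCNE1, the CIP/KIP inhibitors CDKN1A (p21), CDKN1B (p27) and CDKN1C (p57), the INK4 inhibitor CDKN2B (p15), and the transcription factors MYC and MYCN. The genes were taken by name from tables of 24358 genes each. The tables named 9 of the 10, and CCNE1, whose row carried no name, was found by its gene identifier. All 10 passed the filter on low values in both comparisons.

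D-type cyclins bind CDK4 or CDK6 and phosphorylate the retinoblastoma protein, which releases E2F factors, and cyclin E with CDK2 carries the step further. CIP/KIP proteins bind cyclin-CDK complexes, mainly those of CDK2, and INK4 proteins bind CDK4 and CDK6. MYC and MYCN raise the transcription of growth and cell cycle genes, and MYC is also a reprogramming factor. CCND1 and MYC are known Wnt targets, CDKN1A is the classical p53 target, and CDKN1A and CDKN2B are known TGF-β targets in epithelial cells. Pluripotent stem cells are known for a short G1 phase.

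The cells were pig PC-iPS, induced pluripotent stem cells derived from pericytes with OCT4, SOX2, KLF4 and c-MYC, so MYC reads from the reprogramming factor and from the gene itself cannot be told apart in these tables. Poly(A) RNA was sequenced in 12 libraries of 4 groups with 3 libraries each: WT PC-iPS, NANOG tdTomato knock-in cells, and knock-in cells given Activin A or SB431542. SB431542 inhibits the type I receptors of Activin and TGF-β. The labels give the medium LCDMV for all groups, which holds vitamin C, CHIR99021, LIF, minocycline hydrochloride and dimethindene maleate. The study, however, describes giving Activin A and SB431542 to knock-in cells in T1, which is LCDMV without LIF. Whether the treated libraries had LIF therefore cannot be told, and they may differ in it from the untreated knock-in libraries. CHIR99021 inhibits GSK3, which is known to activate Wnt signalling, and the labels give it for the WT cells too. Its effect in these cells was not tested. The knock-in cells carried FLAG-P2A-tdTomato with a drug resistance gene at the end of NANOG, came from selected and sorted cultures that were not single-cell clones, and can therefore differ in where and on how many alleles the reporter sat. The labels give neither dose nor duration for the treated libraries, and they do not say that the WT libraries were separate cultures, so p-values measure only the spread between these libraries.

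Levels are FPKM, fragment numbers scaled by transcript length and sequencing depth. The summed FPKM of a library was 364241 to 390320. The relative depth, read from the steps of the low FPKM values, was 0.565 to 0.634 in WT and 0.731 to 1 in knock-in libraries, and 0.838 to 0.979 in the treated ones. Within a group, libraries correlated with r = 0.977 to 0.990 on the log scale across genes, which are not independent replicates. Among the pluripotency markers, SOX2 lay between 39.1 and 71.5 FPKM in all 12 libraries, whereas DPPA5 did not exceed 0.126 and EPCAM 0.516 FPKM. NANOG, the gene with the reporter, was 74.5 ± 24.8 (SD, n = 3) in knock-in and 17.9 ± 9.02 FPKM (SD, n = 3) in WT libraries. It was 154 ± 43.0 FPKM (SD, n = 3) with Activin A and 16.9 ± 8.89 FPKM (SD, n = 3) with SB431542.

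The first question was whether these genes differed between knock-in and WT cells. CCND1 and CCND2 rose in knock-in cells, by 1.16 and 0.58 on the log2(FPKM + 1) scale, and no member fell. These were 2 of 10 members at an adjusted p of at most 0.05 (limma, Benjamini-Hochberg over the 14014 genes tested), where 4.88% of all genes tested were higher and 2.34% lower. Of the members, CCND1 alone also reached a log2 difference of 1; 2.31% of all genes tested passed both thresholds. CDKN1A was higher in each knock-in library than in any WT library by a similar size to CCND1, but its adjusted p was 0.053. The knock-in and WT libraries did not overlap for 4 members, namely CCND1, CCND2, CDKN1A and MYCN, against 35.7% of all genes tested. With 3 libraries against 3, an exact permutation test cannot give a p below 0.1.

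The second question was whether blocking the Activin pathway changed them relative to activating it. In the fit without pairing, 0 of 10 members passed between Activin A and SB431542 cells, where 0.0929% of the 13999 genes tested were higher and 0.0429% lower (limma), and 1797 genes had an unadjusted p under 0.05. Both thresholds were passed by 0.0929% of genes. CDKN1C and MYC were the 2 members whose groups did not overlap, both higher with Activin A, against 20% of all genes tested. Libraries with the same number in these groups deviated together (r = 0.400, 0.587 and 0.535 across 13999 genes), and with the number as a block both of these members passed, at adjusted p = 0.033 and 0.044 (limma). With that block 1.66% of all genes tested were higher, and 26 of 13999 genes were lower at both thresholds. The share lower on the adjusted p alone is not reported here. Leaving out a number as well lost the MYC call each time, and the CDKN1C call without number 1 or number 2.

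**Figure D1:**
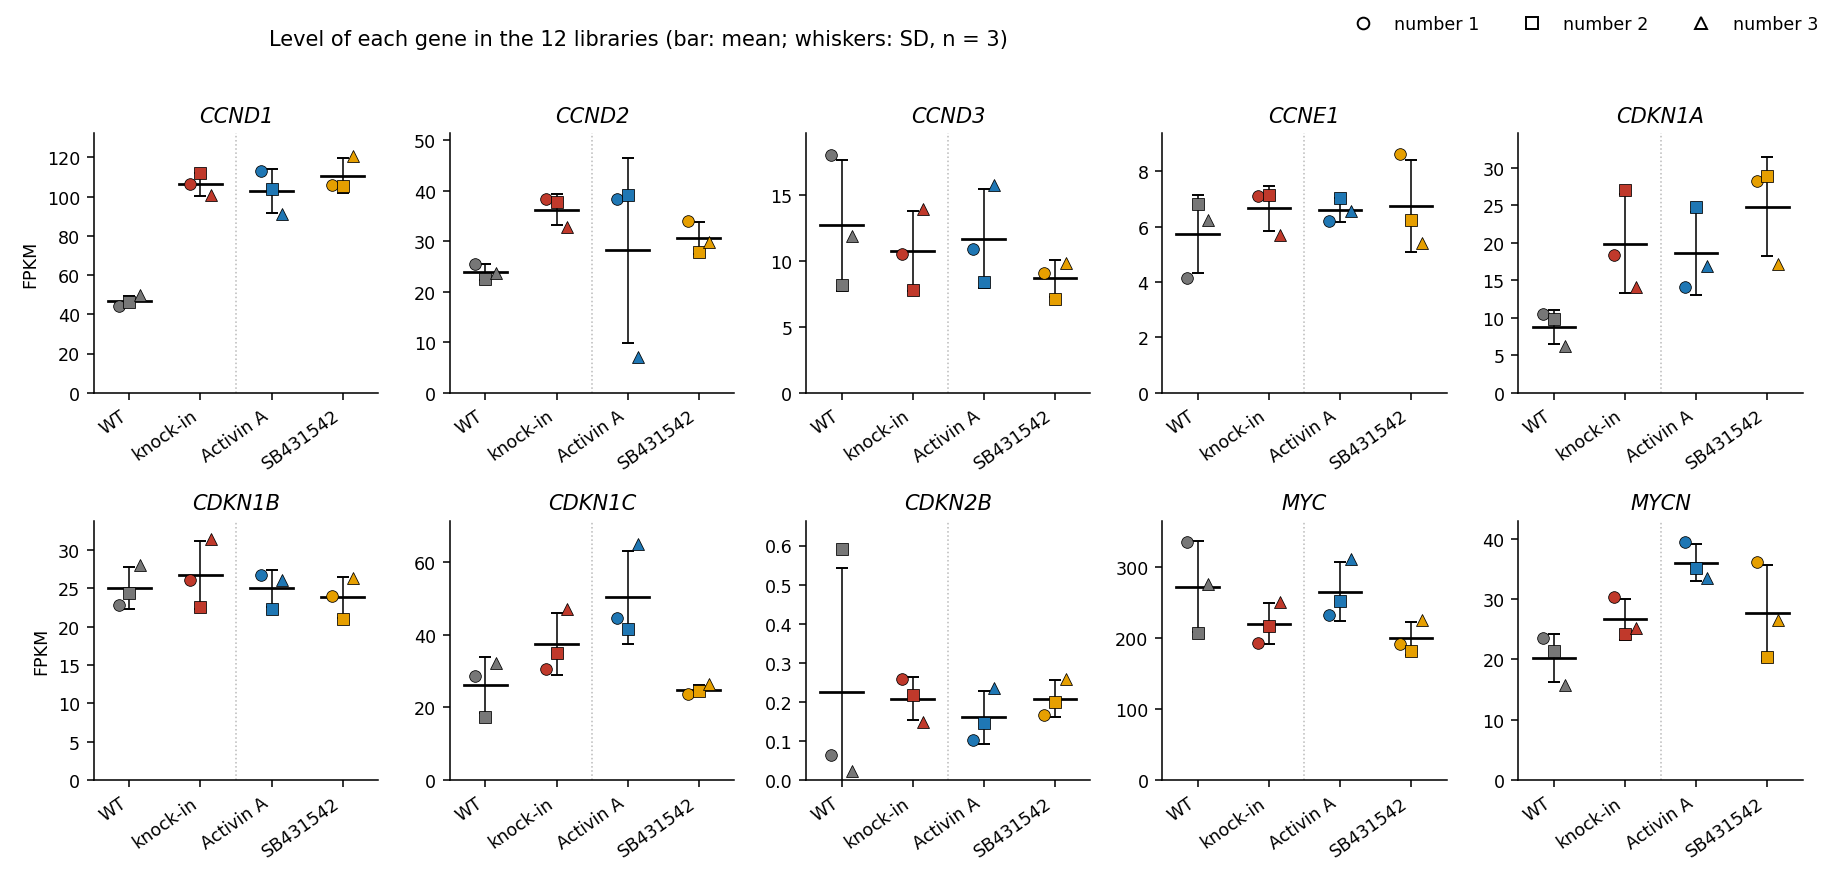
FPKM (vertical axis, from 0, a separate scale for each gene) of the 10 genes in the 12 libraries of the 4 groups. Points are libraries, with the marker shape giving the replicate number, bars are means and whiskers are SD (n = 3); the whisker of CDKN2B in WT runs below 0 and is not drawn there, and the dotted line separates the 2 tables. CCND1 lies between 44.5 and 49.7 FPKM in WT and between 91.1 and 121 in all other libraries, and 1 Activin A library has a CCND2 level of 7.07 FPKM.

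CCND1, the main D-type cyclin in these cells, lies on chromosome 2 (3621242 to 3633380, RefSeq annotation of Sscrofa11.1; ENSSSCG00000037900 in the tables). Its level was 106, 112 and 101 FPKM in the knock-in libraries 1, 2 and 3 and 44.5, 46.5 and 49.7 FPKM in WT. It was 113, 104 and 91.1 FPKM with Activin A and 106, 105 and 121 FPKM with SB431542. All WT libraries were therefore low, and the 9 libraries made from knock-in cells overlapped each other. The knock-in mean was 2.27 times the WT mean, with a log2 difference of 1.16 (SE 0.09; 95% interval 0.95 to 1.38; adjusted p = 0.0020, limma; exact permutation p = 0.1). CCND1 passed in all 16 alternative settings, at differences of 1.04 to 1.21. Between Activin A and SB431542 the difference was -0.11 (95% interval -0.35 to 0.13; adjusted p = 0.68, limma). Averaged over all 12 libraries, CCND1 stood above 96.3% of the expressed genes.

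CCND2, a D-type cyclin that MYC is known to induce, lies on chromosome 5 (66092483 to 66114575), where its span overlaps the long non-coding RNA LOC106507534. The strand setting of the counting is not given in the sources used here, so reads of overlapping genes cannot be told apart. CCND2 was 38.3, 37.7 and 32.8 FPKM in knock-in and 25.6, 22.5 and 23.7 FPKM in WT libraries. Each knock-in library was above each WT library, and the ratio of the means was 1.52. The log2 difference was 0.58 (SE 0.11; 95% interval 0.33 to 0.83; adjusted p = 0.028, limma). This call was lost without knock-in 1, knock-in 2, WT 1 or WT 2, with an adjusted p up to 0.12, and the difference was 0.54 to 0.65 over the 6 fits that left out a library. With Activin A it was 38.4, 39.2 and 7.07 FPKM, and with SB431542 it was 34.1, 28.0 and 29.9 FPKM. Activin A 3 thus stood far below every other library, and the sign of the comparison rested on it. The difference was -0.43 with all libraries (95% interval -1.86 to 1.00; adjusted p = 0.80, limma) and 0.33 without Activin A 3.

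CCND3, the remaining D-type cyclin, overlaps TAF8 on chromosome 7 (37087336 to 37182462). It was 10.5, 7.79 and 13.9 FPKM in knock-in and 18.0, 8.20 and 11.9 FPKM in WT libraries. With Activin A it was 10.9, 8.38 and 15.8 FPKM and with SB431542 it was 9.11, 7.08 and 9.83 FPKM. The groups overlapped in both comparisons. The difference was -0.19 between knock-in and WT (95% interval -0.88 to 0.49; adjusted p = 0.70, limma) and 0.36 between Activin A and SB431542 (95% interval -0.18 to 0.90; adjusted p = 0.55, limma). By number the Activin A library was higher in each pair, by ratios of 1.20, 1.18 and 1.60, and with the block the interval was 0.08 to 0.64 and the adjusted p 0.15 (limma).

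Added together, the D-type cyclins came to 83.5 ± 5.65 FPKM in WT and 153 ± 5.42 FPKM in knock-in libraries (SD, n = 3). The sum was 143 ± 25.5 FPKM with Activin A and 150 ± 10.2 FPKM with SB431542 (SD, n = 3). CCND1 made up 56.3% ± 5.13 (SD, n = 3) of this sum in WT and 69.3% ± 1.58 (SD, n = 3) in knock-in libraries, and 72.8% and 73.8% in Activin A and SB431542 libraries. The share of CCND3 was 15.0% in WT and 7.06% in knock-in libraries. The shares are a description and were not tested.

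CCNE1 has its gene on chromosome 6 (39919541 to 39933224; ENSSSCG00000002855). Its level was 7.12, 7.15 and 5.71 FPKM in knock-in, 4.15, 6.83 and 6.25 FPKM in WT, 6.21, 7.04 and 6.56 FPKM in Activin A, and 8.62, 6.24 and 5.43 FPKM in SB431542 libraries. The 4 groups overlapped. The difference was 0.20 between knock-in and WT (95% interval -0.25 to 0.65; adjusted p = 0.53, limma) and -0.01 between Activin A and SB431542 (95% interval -0.40 to 0.38; adjusted p = 0.99, limma).

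CDKN1A, the inhibitor p21, lies on chromosome 7 (32354776 to 32363771). It was 18.4, 27.1 and 14.1 FPKM in knock-in and 10.5, 9.78 and 6.23 FPKM in WT libraries. The lowest knock-in library was above the highest WT library, and the means, 19.9 ± 6.59 and 8.82 ± 2.27 FPKM (SD, n = 3), had a ratio of 2.25. The log2 difference was 1.07 (SE 0.26; 95% interval 0.46 to 1.68; adjusted p = 0.053, limma; exact permutation p = 0.1). The adjusted p was 0.027 to 0.050 in 5 of the 16 alternative settings and up to 0.20 in the others, so the call depended on the processing. With Activin A it was 14.1, 24.7 and 16.9 FPKM and with SB431542 it was 28.2, 28.9 and 17.2 FPKM. Each SB431542 library was above the Activin A library of the same number, with Activin A over SB431542 ratios of 0.50, 0.86 and 0.99. The groups overlapped, and the difference was -0.40 (95% interval -1.02 to 0.22, adjusted p = 0.56, limma). With the number as a block the interval was -0.89 to 0.09 and the adjusted p 0.28 (limma). The blocked difference was -0.12 without number 1, -0.49 without number 2 and -0.59 without number 3.

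CDKN1B, the inhibitor p27, had a similar range in every group. It lay between 22.6 and 31.4 FPKM in knock-in, 22.8 and 28.0 FPKM in WT, 22.3 and 26.7 FPKM in Activin A, and 21.1 and 26.3 FPKM in SB431542 libraries. The difference was 0.08 between knock-in and WT (95% interval -0.26 to 0.42; adjusted p = 0.75, limma). It was 0.07 between Activin A and SB431542 (95% interval -0.20 to 0.34; adjusted p = 0.83, limma).

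CDKN1C, the inhibitor p57 and the product of a maternally expressed imprinted gene, lies on chromosome 2 (2019391 to 2022092). It was 44.6, 41.6 and 65.1 FPKM with Activin A and 23.8, 24.5 and 26.4 FPKM with SB431542. All Activin A libraries were above all SB431542 libraries, with ratios of 1.88, 1.69 and 2.47 for libraries 1, 2 and 3. The log2 difference was 0.96 (SE 0.17; 95% interval 0.57 to 1.36; adjusted p = 0.12, limma; exact permutation p = 0.1). With the replicate number as a block the SE was 0.11 and the adjusted p 0.033 (limma). Without number 1 or number 2 the blocked adjusted p was 0.14 and 0.057, and without number 3 it was 0.040. Untreated knock-in libraries had 30.5, 35.1 and 47.1 FPKM and WT libraries 28.8, 17.4 and 32.3 FPKM, which overlapped, with a difference of 0.53 (95% interval -0.05 to 1.11; adjusted p = 0.21, limma). Number 3 had the highest CDKN1C in knock-in, Activin A and SB431542 cells alike.

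The summed FPKM of the CIP/KIP inhibitors was 60.0 ± 7.72 in WT, 84.1 ± 8.85 in knock-in, 94.0 ± 12.3 in Activin A and 73.5 ± 3.23 in SB431542 libraries (SD, n = 3). CDKN1C took 53.1% of this sum with Activin A and 34.0% with SB431542. The share of CDKN1A was 20.0% with Activin A and 33.5% with SB431542. CDKN1B held 42.0% in WT and 31.8% in knock-in libraries, at a similar level in FPKM.

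CDKN2B, the INK4 inhibitor p15, was close to undetected. Its level lay between 0.0234 and 0.592 FPKM over the 12 libraries, and both ends of that range were WT libraries. Its differences were 0.01 between knock-in and WT (95% interval -0.39 to 0.40) and -0.06 between Activin A and SB431542 (95% interval -0.24 to 0.12). At so low a level the size depended on the pseudocount: between knock-in and WT it was 0.34 with 0.1 and 0.91 with 0.01 in place of 1 (adjusted p = 0.76 and 0.60, limma), and between Activin A and SB431542 it was -0.26 and -0.40. Its span on chromosome 1 (200666250 to 200770880) overlaps the long non-coding RNA LOC106509137.

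**Figure D2:**
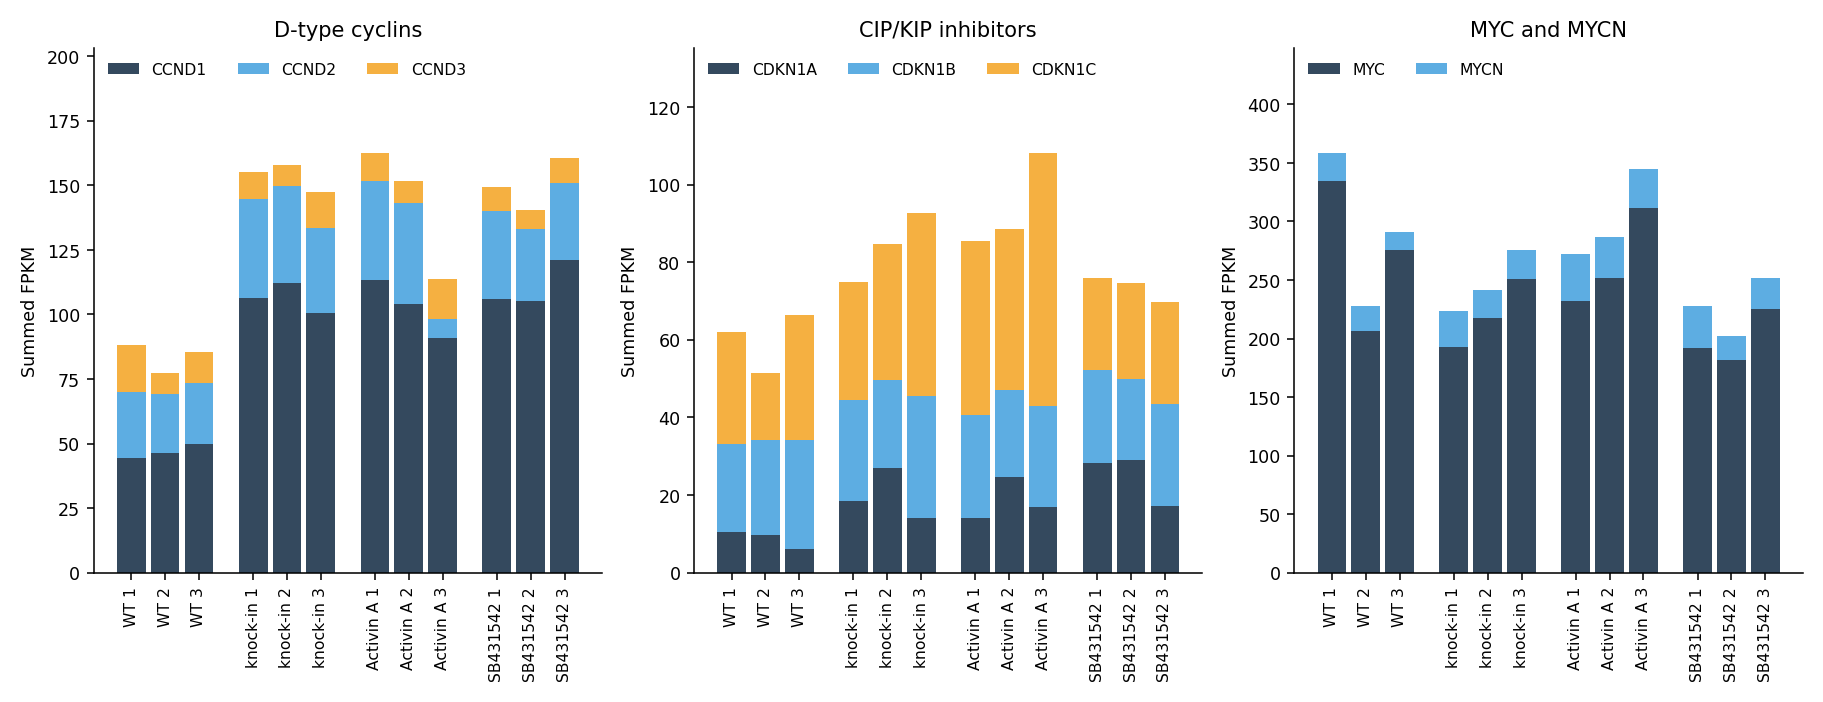
Summed FPKM (vertical axes, from 0, a separate scale for each family) of the D-type cyclins, the CIP/KIP inhibitors, and MYC with MYCN in each of the 12 libraries, with each gene as a stacked segment. The WT libraries have the lowest D-type cyclin sums, 77.2 to 88.1 FPKM. CDKN1C is the tallest segment among the inhibitors in all Activin A and knock-in libraries, and in WT 1, WT 3 and SB431542 3.

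MYC, on chromosome 4 (12455141 to 12460360), was the most abundant member, above 98.7% of the expressed genes. It was 232, 252 and 311 FPKM with Activin A and 192, 182 and 225 FPKM with SB431542. The lowest Activin A library was just above the highest SB431542 library, and the ratios by number were 1.21, 1.39 and 1.38. The log2 difference was 0.40 (SE 0.13; 95% interval 0.09 to 0.72; adjusted p = 0.29, limma; exact permutation p = 0.1). With the number as a block the SE was 0.06 and the adjusted p 0.044, and without number 1, 2 or 3 the blocked adjusted p was 0.12, 0.15 and 0.10 (limma). MYC was 193, 218 and 251 FPKM in knock-in and 335, 206 and 275 FPKM in WT libraries. These overlapped, with a difference of -0.28 (95% interval -0.72 to 0.15; adjusted p = 0.34, limma). CCND1 and MYC are both Wnt targets in textbooks. Between knock-in and WT cells the CCND1 difference passed the test and the MYC difference did not. The part of Wnt signalling in either was not tested.

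MYCN, the paralogue known from neural and embryonic cells, lies on chromosome 3 (121543201 to 121549678), where its span overlaps the pseudogene LOC110260051. It was 30.4, 24.2 and 25.2 FPKM in knock-in and 23.6, 21.4 and 15.8 FPKM in WT libraries. These did not overlap, but the lowest knock-in and highest WT libraries were close, and the difference was 0.39 (SE 0.17; adjusted p = 0.17, limma; exact permutation p = 0.1). With Activin A it was 39.4, 35.2 and 33.5 FPKM and with SB431542 it was 36.2, 20.4 and 26.5 FPKM. Here the groups overlapped, and the difference was 0.40 (95% interval -0.06 to 0.87; adjusted p = 0.45, limma). By number the Activin A library was again the higher in each pair, by ratios of 1.09, 1.72 and 1.26, and with the block the interval was 0.07 to 0.74 and the adjusted p 0.16 (limma). MYC made up 92.9% of the sum of MYC and MYCN in WT, 89.1% in knock-in, and 87.8% in both Activin A and SB431542 libraries.

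**Figure D3:**
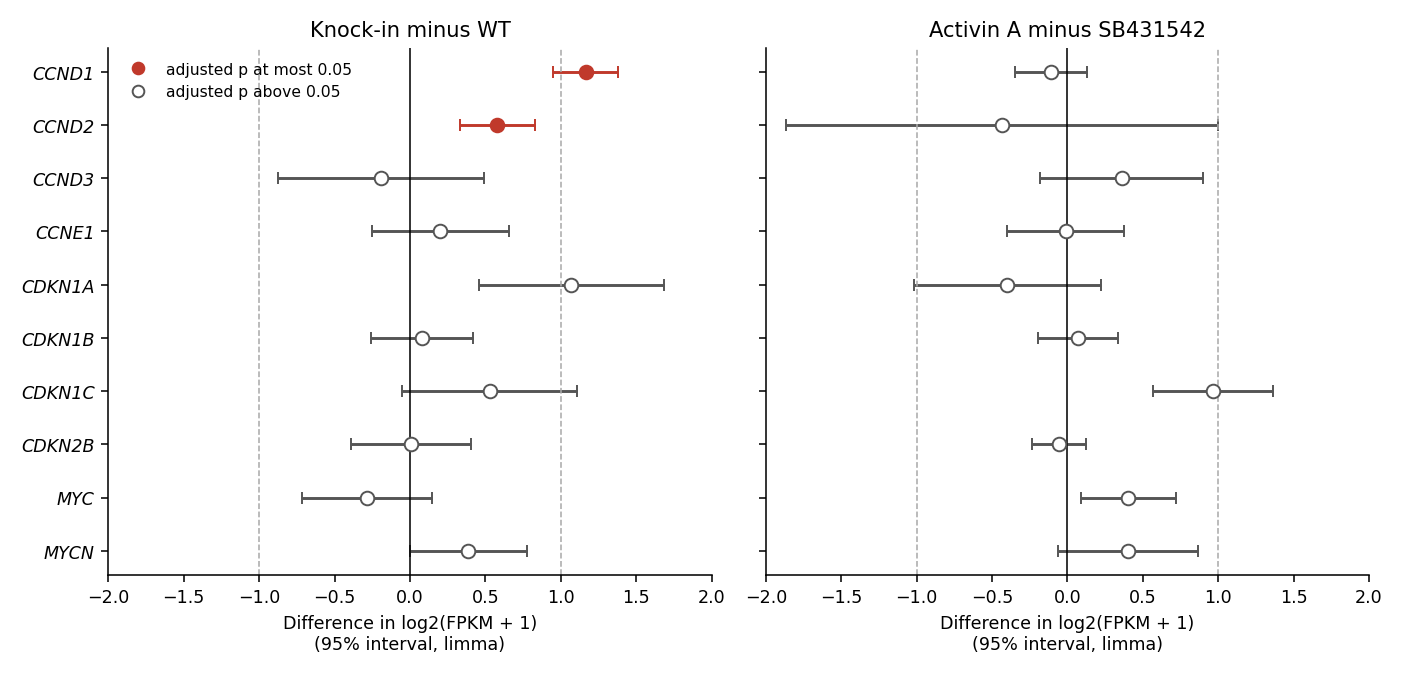
Difference in log2(FPKM + 1) for each of the 10 genes with its 95% interval from limma (horizontal axes), for knock-in minus WT and for Activin A minus SB431542, in the fits without the replicate block. Filled points have an adjusted p of at most 0.05, open points do not, and dashed lines mark a difference of 1 in each direction; the 2 filled points are CCND1 and CCND2, and the CCND2 interval is the widest on the Activin A side.

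Set side by side over the 4 groups, CCND1, CDKN1A and MYCN each had their lowest mean in WT, with no overlap between the WT libraries and the group next above. The other groups, all made from knock-in cells, overlapped their neighbours in order for these genes. WT was not set apart from SB431542 for MYCN. SB431542 2 had 20.4 FPKM, below WT 1 at 23.6 and WT 2 at 21.4 FPKM. For CCND2, CCND3, CCNE1, CDKN1B, CDKN1C and MYC, each group overlapped the next in the order of the means. The order for CDKN1C was Activin A, knock-in, WT and SB431542 from high to low, and that for MYC was WT, Activin A, knock-in and SB431542. WT and knock-in came from a different table than the treated libraries, and the tables may have been normalized separately, so nothing was tested across them.

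The replicate number recurred across the groups made from knock-in cells. The titles of the untreated knock-in libraries match the names of 3 lines that the study describes, and the sources used here do not say whether the numbers of the treated libraries mark the same lines. The same number was highest in knock-in, Activin A and SB431542 libraries for 5 of 10 members, where this held for 37.4% of all expressed genes. Number 3 was highest for CCND3, CDKN1C and MYC, number 2 for CDKN1A, and number 1 for MYCN. For CDKN1A, number 2 had 27.1, 24.7 and 28.9 FPKM in the 3 groups. Number 2 was the lowest in all 3 groups for CCND3 and CDKN1B. The share of all expressed genes with a recurring lowest number is not reported here. Whether this is more than usual therefore cannot be told.

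The wider G1/S machinery, a list of CDKs, further inhibitors, retinoblastoma proteins, E2F factors and ubiquitin ligase subunits, was tested with 28 genes. Between knock-in and WT 1 of the 28 rose and 1 fell, which is close to the shares of all genes tested (4.88% higher and 2.34% lower), with a median difference of 0.07 against 0.00 for all genes. The groups did not overlap for 7 genes higher and 7 lower in knock-in libraries, against 35.7% of all genes in either direction. The gene that rose was CDK6, a catalytic partner of the D-type cyclins, at 4.22 ± 0.30 against 2.12 ± 0.60 FPKM (SD, n = 3; difference 0.76; adjusted p = 0.046, limma). The gene that fell was SKP1, a subunit of the SCF ubiquitin ligase, at 114 ± 8.57 against 165 ± 16.3 FPKM (SD, n = 3; difference -0.52; adjusted p = 0.035, limma). CDK4, the other partner, was 61.1 FPKM in knock-in and 55.7 FPKM in WT libraries (adjusted p = 0.57, limma). CDK6 and SKP1 lost the call without any 1 of knock-in 1, knock-in 2, knock-in 3, WT 1 and WT 2. CDK6, SKP1 and CDK4 were picked after their values were seen. With Activin A against SB431542, 0 of the 28 passed.

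Of 33 S phase genes tested, 8 rose and none fell between knock-in and WT, 29 had the higher mean in knock-in libraries, and the median difference was 0.25 against 0.00 for all genes, of which 4.88% rose and 2.34% fell. None of the 8 reached a difference of 1. Examples, chosen after their values were seen, are MCM7, a subunit of the replicative helicase, at 212 ± 20.1 against 119 ± 22.7 FPKM, and FEN1, the flap endonuclease, at 51.2 ± 5.39 against 28.8 ± 4.31 FPKM (SD, n = 3; adjusted p = 0.027 and 0.022, limma). None of the 33 passed without knock-in 1 or without knock-in 2. CDT1, LIG1, POLD1, MCM4, MCM2 and TK1 also lost the call without knock-in 3, WT 1 or WT 2, so that each passed in 1 of 6 fits, while FEN1 passed in 4 and MCM7 in 2. Of 30 G2/M genes, 3 rose, where 4.88% of all genes did, and none fell, the median of the 30 was -0.08, and none passed without knock-in 1 or knock-in 2. In the treated cells, none of the S phase or G2/M genes passed in the fit without pairing. With the replicate block TYMS, thymidylate synthase, named after its value was seen, fell by 0.37 with Activin A against SB431542 (adjusted p = 0.034, limma).

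Of 17 partners and antagonists of MYC tested, 2 rose and none fell between knock-in and WT, where 4.88% of all genes rose. The larger of these was MNT, a MAX-binding repressor, at 12.9 ± 0.72 against 5.61 ± 1.31 FPKM (SD, n = 3; difference 1.09; SE 0.17; adjusted p = 0.019, limma), which lost the call without knock-in 1 or knock-in 2. The other gene that rose was MXD3, by 0.44 (adjusted p = 0.0495, limma), which passed in 0 of 6 leave-one-out fits. MAX itself was 9.71 FPKM in knock-in and 18.0 FPKM in WT libraries (adjusted p = 0.10, limma). MXD3 and MAX were chosen after their values were seen. Of 35 MYC target genes, 7 rose, against the same 4.88% of all genes, and none fell, with a median difference of 0.15, and none passed without knock-in 1, knock-in 2 or WT 1. MYC itself did not pass. Between Activin A and SB431542, none of the partners and none of the MYC targets passed without pairing, and the medians were -0.03 and -0.02. With the block MYCL, the third MYC paralogue, named after its value was seen, rose by 0.47 with Activin A against SB431542 (adjusted p = 0.045, limma).

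Among 25 p53 target genes tested besides CDKN1A, 3 rose between knock-in and WT, where 4.88% of all genes did, and none fell, with a median difference of 0.08. BTG2, an antiproliferative factor, was 41.2 ± 11.7 against 13.3 ± 3.22 FPKM (SD, n = 3; difference 1.54; adjusted p = 0.021, limma). BBC3, the apoptosis inducer PUMA, was 10.3 ± 1.56 against 3.57 ± 0.96 FPKM (SD, n = 3; difference 1.32; adjusted p = 0.016, limma). PHLDA3, an inhibitor of AKT, was 44.0 ± 5.57 against 17.5 ± 3.92 FPKM (SD, n = 3; difference 1.296; adjusted p = 0.012, limma). PHLDA3 passed in 6 of 6 leave-one-out fits, BBC3 in all but that without knock-in 2, and BTG2 in all but those without knock-in 2 and WT 2. MDM2, a standard p53 target also chosen after its values were seen, was 12.1 FPKM in knock-in and 11.7 FPKM in WT libraries (adjusted p = 0.83, limma). Between Activin A and SB431542 none passed without pairing, and with the block BTG2 alone did, higher by 0.77 (adjusted p = 0.048, limma).

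Of 13 Wnt readouts tested, 2 rose between knock-in and WT, where 4.88% of all genes did, and none fell, with a median difference of 0.66. They were NKD1, at 32.1 ± 5.84 against 7.63 ± 5.67 FPKM, and RNF43, at 3.39 ± 1.18 against 0.64 ± 0.60 FPKM (SD, n = 3), both feedback inhibitors of the pathway (adjusted p = 0.030 and 0.035, limma), and neither passed without knock-in 1, knock-in 2, WT 1 or WT 2; NKD1 also failed without knock-in 3. None of the 13 passed with Activin A against SB431542 without pairing, and with the block TNFRSF19, named after its value was seen, fell by 0.63 (adjusted p = 0.041, limma). Of 8 Activin readouts tested, 1 rose between knock-in and WT, where 4.88% of all genes did. It was NANOG, by 2.06 (adjusted p = 0.025, limma), which passed in 1 of 6 leave-one-out fits. In 7 of the 8 the knock-in libraries lay wholly above WT, against 35.7% of all genes in either direction, and the median difference was 0.61. Of the same 8, 3 rose with Activin A over SB431542: NANOG, by 3.18 (adjusted p = 0.042, limma); SMAD7, the inhibitory SMAD, at 7.34 ± 0.70 against 1.41 ± 0.32 FPKM (SD, n = 3; difference 1.80; adjusted p = 0.024, limma); and LEFTY2, which is listed at 0 in all SB431542 libraries. Of all genes tested, 0.0929% rose in this fit without the block. Leaving out any 1 library in that fit left at most 1 of the 3 calls, at adjusted p up to 0.21. With the block 5 passed, all higher with Activin A, where 1.66% of all genes rose. PMEPA1 and BAMBI were among them and were named after their values were seen. CCND1, CCND2, CCND3 and CCNE1 passed in neither fit.

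**Figure D4:**
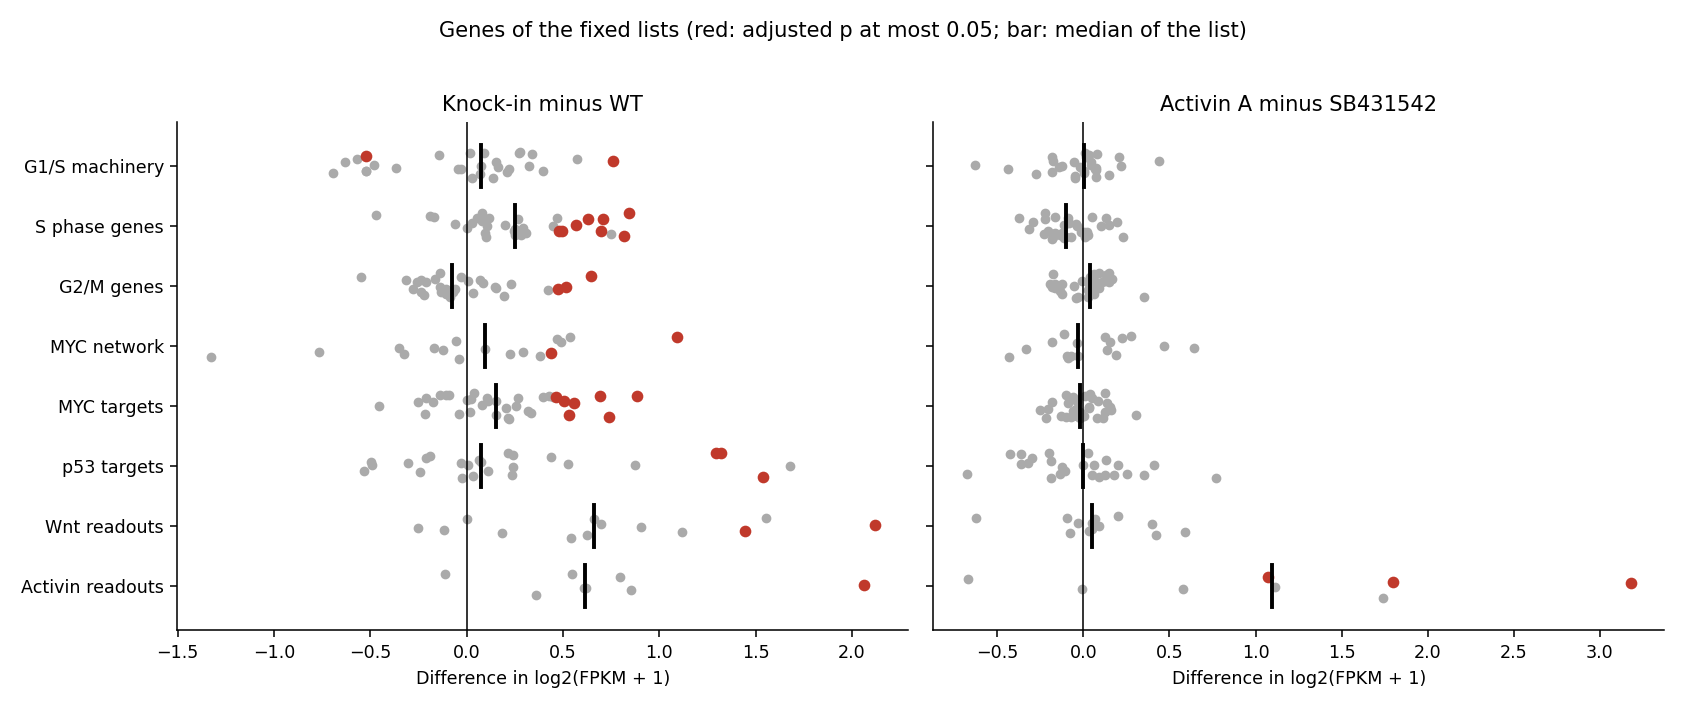
Difference in log2(FPKM + 1) (horizontal axes) of each tested gene on 8 gene lists, for knock-in minus WT and for Activin A minus SB431542, in the fits without the replicate block. Each point is a gene, red points have an adjusted p of at most 0.05, and black bars are list medians; between knock-in and WT the S phase list has 8 red points, all to the right of 0, and between Activin A and SB431542 the only red points are the 3 Activin readouts.

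Among the genes closest to CCND1 in pattern over the 12 libraries, by root mean square distance of log2(FPKM + 1) centred on each gene's mean, were TMEM70 (0.132) and PDLIM5 (0.137), with 10322 genes compared. TMEM70, for example, had means of 48.1 FPKM in knock-in, 17.9 in WT, 39.1 in Activin A and 46.4 in SB431542 libraries. The 3 closest to CDKN1A were WFIKKN1 (0.221), ACTN1 (0.240) and PLK3 (0.242). ACTN1, which encodes an actin cross-linking protein, had means of 74.6 FPKM in knock-in, 31.8 in WT, 60.0 in Activin A and 93.6 in SB431542 libraries.

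The sums of the cell type marker lists differed between some of the groups, and the genes within a list did not all move alike. The summed FPKM of 8 pericyte markers was 15.2 to 18.6 in WT and 33.6 to 38.7 in knock-in libraries, and 28.7 to 29.4 with Activin A and 45.3 to 48.6 with SB431542. Among the 7 of them tested, 6 had the higher mean in knock-in than in WT libraries. With Activin A, 2 of the 7 had a higher mean than with SB431542. The knock-in libraries lay wholly above WT for 2 of the 7, against 35.7% of all genes in either direction. PDGFRB and ACTA2 rose between knock-in and WT, where 4.88% of all genes did. ACTA2 fell with Activin A against SB431542 (adjusted p = 0.035, limma), where 0.0429% of all genes did. Its adjusted p was above 0.05 without any 1 library but 0.014 with the block (limma). CSPG4 and DES stayed at or below 0.250 and 0.724 FPKM in all libraries. Per the labels, feeder cells were removed by brief plating before RNA extraction, and the sources used here do not say whether the treated libraries came from cultures with feeder cells or without. The summed FPKM of 8 fibroblast markers was 9.02 to 15.0 in WT, 22.8 to 46.2 in knock-in, 44.6 to 70.0 with Activin A and 10.02 to 17.7 with SB431542. Of the 6 fibroblast markers tested, 4 had the higher mean in knock-in than in WT libraries and 4 the higher mean with Activin A than with SB431542. DCN alone of these 6 rose between knock-in and WT, where 4.88% of all genes did. The DCN call was lost without knock-in 2, knock-in 3, WT 1 or WT 2. None of the 6 passed between Activin A and SB431542 in the fit without the block. With the block COL3A1 and COL1A2 rose with Activin A against SB431542, where 1.66% of all genes did. LUM, POSTN and PDGFRA stayed at or below 0.102, 0.252 and 0.431 FPKM. The sum of 6 pluripotency markers was 124 to 126 in WT and 210 to 389 in knock-in libraries, and 165 to 286 with Activin A and 305 to 597 with SB431542. The member of this list that varied most in FPKM was LIN28A, an RNA-binding protein of early embryonic cells, at 40.2 ± 7.40 FPKM in WT and 185 ± 90.8 FPKM in knock-in libraries, and at 119 ± 70.9 FPKM with Activin A and 339 ± 153 FPKM with SB431542 (SD, n = 3). None of the 6 pluripotency markers passed between Activin A and SB431542 in the fit without the block. With the block LIN28A fell by 1.55 with Activin A against SB431542 (adjusted p = 0.015, limma). Of the 5 pluripotency markers tested between knock-in and WT, LIN28A and SOX2 rose, where 4.88% of all genes did. The other 3 had the lower mean in knock-in libraries. LIN28A lost the call without knock-in 1 or WT 1, and SOX2 without knock-in 1, knock-in 2 or knock-in 3. WT libraries were also the shallowest. The part of cell type markers and depth in the differences of CCND1, CCND2, CDKN1A, CDKN1C and MYC was not tested. In bulk RNA, fewer cells of a type and less RNA per cell cannot be told apart.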

How the data were processed

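Poly(A) RNA-seq of 12 pig PC-iPS libraries was analysed from the 2 tables the authors deposited, 6 libraries each. Per the submitters' processing notes, reads were handled with bcl2fastq 2.17.1.14, HISAT2 2.0.4, StringTie 1.3.3 and featureCounts 1.6.4 on Sscrofa11.1. The deposited values are FPKM, computed by the authors. The authors tested read counts with DESeq2. Counts were not used here, so limma 3.58.1 (R 4.3.3) with a variance trend was run on log2(FPKM + 1), which understates the change of low genes. Genes with at least 0.1 FPKM in 3 of the 6 libraries were tested within each table, two-sided, with Benjamini-Hochberg adjustment. Rose and fell mean an adjusted p of at most 0.05, and both thresholds add a log2 difference of at least 1. Exact two-sided permutation tests used 3 against 3 libraries.

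Gene names came from the tables for 17451 genes and through identifiers for 939 more. Coordinates are from RefSeq, matched by symbol. Promoter motifs and sequences were not analysed here. Named genes were the 10 members, list genes past both thresholds (at most 4 a list), NANOG, and the 3 genes nearest in pattern to CCND1 (not all are reported here) and CDKN1A; any other gene named was chosen after its values were seen, members of the marker lists included. The members and lists were chosen with earlier results of these data known.

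Same-numbered Activin A and SB431542 libraries deviated together from their group means (r = 0.400, 0.587 and 0.535 across 13999 genes), which is where their pairing comes from, since the sources used here do not state it for the treated libraries. Alternatives were other pseudocounts, filters and scalings, no trend, a replicate block, 12 libraries in 1 fit and leaving out each library. The scripts were tested on simulated data. FPKM carries no read count, so only the relative depth of libraries is known.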

Additional observations from a re-analysis of the deposited data

How the results depend on the processing

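Between knock-in and WT, CCND1 passed in all 16 settings run besides the reported one. CCND2, at 0.58, had an adjusted p above 0.05 with no filter (0.068), with the replicate block (0.056) and with 12 libraries in 1 fit (0.41; this fit includes Activin A 3), and 2 of 6 leave-one-out fits kept it. CDKN1A passed with a pseudocount of 0.1, the filter at 1 FPKM, TPM, the replicate block and 12 libraries in 1 fit, but in 0 of 6 leave-one-out fits. The number of members that rose, 2, was 3 with a pseudocount of 0.1, the filter at 1 FPKM and TPM, 1 with no filter and 1 to 2 on leaving out a library. Same-numbered knock-in and WT libraries did not deviate together (r = -0.018, 0.0087 and 0.094), so they share only a number. With the replicate block the list genes past the adjusted p went from 8 to 0 for S phase, 2 to 0 for G1/S, 3 to 0 for G2/M, 7 to 1 for MYC targets, 2 to 1 for the MYC network and 2 to 1 for pluripotency markers. Genes passing both thresholds were 225 higher and 99 lower. The higher count was 346 with a pseudocount of 0.1, 44 with no filter, 684 on the adjusted p alone and 117 to 303 without a library. The lower count was 192 with a pseudocount of 0.1, 181 with 0.01, 9 with no filter, 156 on TPM, 60 with the block, 328 on the adjusted p alone and 28 to 143 without a library. Between Activin A and SB431542, 8 genes were higher and 5 lower. The higher count was 5 with a pseudocount of 0.01, 0 with no filter, 2 with the filter at 1 FPKM, 3 without the trend, 73 with the block, 20 with 12 libraries, 13 on the adjusted p alone and 0 to 4 without a library. The lower count was 3 with a pseudocount of 0.01, 1 with no filter, 3 with the filter at 1 FPKM, 26 with the block, 8 with 12 libraries and 0 to 1 without a library. With the block 2 members were higher in place of 0, CDKN1C and MYC, and leaving out a number as well, chosen after seeing the data, lost MYC each time and CDKN1C without number 1 (adjusted p = 0.14) or number 2 (0.057). The difference of CCNE1 between Activin A and SB431542 moved from -0.010 to 0.00999 under quantile scaling. On leaving out a library the difference of CCND2 between knock-in and WT was 0.537 to 0.648. Differences that changed sign then were those of CCND3 (-0.448 to 0.0755), CDKN1B (-0.0387 to 0.190) and CDKN2B (-0.107 to 0.211) between knock-in and WT, and those of CCND2 (-0.823 to 0.335), CCNE1 (-0.136 to 0.155) and CDKN1B (-0.0117 to 0.149) between Activin A and SB431542. With the block and a number left out, CCND1 (0.0381) and CCND2 (0.320) changed sign without number 3, and CCNE1 (0.193) without number 1. CDKN2B has no value under the filter at 1 FPKM. The cause of these changes was not tested, and a library left out also lowers the number of samples.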

Other observations

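CCND2 in Activin A 3 stood apart in a way that few genes did, a feature picked out after its values were seen. Its level there was 0.314 of that in the lowest of the other 11 libraries. Among 5750 genes with a mean of at least 10 FPKM, 1 gene, CCND2, was so far below its lowest other library in Activin A 3, at under 1/3 of it, and the other libraries had 0 to 8 such genes each, with the 8 in WT 3. TIGAR, which neighbours CCND2 on chromosome 5, was 3.21 FPKM in Activin A 3 and 3.33 to 4.62 FPKM elsewhere, and PARP11 was 4.08 against 3.85 to 7.17 FPKM. CCND1 in the same library, at 91.1 FPKM, was the lowest of the 9 libraries made from knock-in cells, and CDKN1C, at 65.1 FPKM, was the highest of all 12. The knock-in and SB431542 libraries of number 3 had CCND2 at 32.8 and 29.9 FPKM.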
